A study of Homo sapiens with 4 samples.

Results

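Genes used as markers of pluripotency and of cancer stem-like cells (CSCs) were followed in SKOV3 cells, a long-established line from a human ovarian cancer. They are POU5F1, KLF4, LIN28B, SALL4, KIT, NES, BMI1, SOX9, SOX4 and CD24, and they were taken by gene symbol, 10 of the 19475 symbols and 21 of the 50078 RefSeq transcript rows in the expression table. The samples were 2 RNA-seq libraries of cells on tissue culture plate (TCP), labelled day 0, and 2 libraries of spheroids on plates coated with polymer X, a polymer thin film, labelled day 8. All 4 libraries came from the same unmodified line, and no source says whether the libraries of a group came from separate cultures, so p-values measure only the spread between these libraries. The labels give 1 medium with serum replacement for all libraries, while the methods of the study describe serum for routine culture and serum replacement for spheroids. The groups differ in both substrate and day and may differ in medium, and the effects of these cannot be told apart. Values are FPKM, sequenced tags that the authors divided by transcript length and by library size.

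In pluripotent cells, POU5F1 (also called OCT4), SOX2 and NANOG form the core of a transcription factor network, with KLF4 as a reprogramming factor and SALL4 as a zinc finger partner. LIN28B is an RNA-binding protein that blocks the maturation of let-7 microRNAs. BMI1 is a subunit of Polycomb repressive complex 1 and is needed for the self-renewal of several adult stem cells. SOX4 and SOX9 are HMG-box factors of progenitor cells. KIT (CD117) is the receptor tyrosine kinase for stem cell factor, CD24 is a small surface glycoprotein anchored by lipid, and NES encodes nestin, an intermediate filament protein of progenitor cells. In ovarian cancer, CD117 and CD24 are used to sort CSCs.

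SOX4, NES and POU5F1 rose on polymer X, by 5.10-fold, 3.22-fold and 4.0-fold in mean FPKM. KIT had the largest difference in the other direction, with a mean on TCP 3.11-fold that on polymer X, but it did not reach the fold change minimum on the scale of the test. CD24, BMI1 and KLF4 differed by 1.37-fold or less. SOX9 lay below an FPKM of 1 in every library. LIN28B and SALL4 were at or near the limit of detection.

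The study designed real-time PCR primers for 4 of these genes. They are shown because they mark the stretch of each transcript that they were designed to amplify. Those for OCT4 also bear on how far POU5F1 can be told from its copies. Capitals mark bases that differ from the closest POU5F1 transcript.
OCT4 forward: gacaacaatgaGaaCcttcag
OCT4 reverse: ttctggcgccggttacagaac
NESTIN forward: aacagcgacggaggtctcta
NESTIN reverse: ttctcttgtcccgcagactt
CD117 forward: tgctctgcttctgtactgcc
CD117 reverse: gccttacattcaaccgtgcc
CD24 forward: gccagtctcttcgtggtctc
CD24 reverse: cctgtttttccttgccacat
The NESTIN, CD117 and CD24 pairs matched transcripts of NES, KIT and CD24 exactly in GENCODE release 29 (GRCh38), with products of 220, 131 and 142 bases, and no transcript of another gene held both primers of a pair. The OCT4 reverse primer matched POU5F1 and also POU5F1B and the pseudogene POU5F1P3. The forward primer matched no transcript exactly. Its closest stretch in POU5F1 differed by G12A and C15T (primer base, position from the 5′ end, transcript base), and the same 2 differences separated it from POU5F1B, POU5F1P3 and POU5F1P4.

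The libraries were scaled by the authors to totals of about 38401000 and 44916000 tags on TCP and 40030500 and 40678500 on polymer X. After a filter that required an FPKM of 1 or more in 2 or more libraries, 11964 genes were tested with limma on log2(FPKM + 1). A gene was called when its adjusted p was under 0.05 and its log2 fold change was 1 or more in size, which held for 1285 genes higher and 1131 lower on polymer X, together 20.2%. Replicates correlated at 0.998 on TCP and 0.997 on polymer X, and libraries of different groups at 0.854 to 0.862 across these genes. A permutation test of 2 against 2 libraries cannot give an exact two-sided p below 0.333. SKOV3 and epithelial identity was visible in both groups, with KRT8 at 262 and 269 FPKM on TCP and at 146 and 143 on polymer X. WT1, MUC16 and CDH1, however, stayed below 0.5 and KRT19 below 1 in every library. ERBB2, CLDN4, PAX8 and CLDN3, which passed the filter only through its polymer X libraries, were called higher, 4 of the 7 tested genes of that list. The other 3, KRT8 (log2 fold change -0.87), KRT7 (-0.76) and KRT18 (-0.44), were lower at an unadjusted p under 0.05 in limma but not called. Under quantile normalization KRT18 was at -0.099. The 20 tested cell proliferation genes were all called lower, PLK1 and AURKA most, with a median log2 fold change of -2.05, and 19 of them remained so under quantile normalization, PCNA being the exception. Of the 6 fibroblast markers, DCN, COL3A1 and COL1A2 were called higher. DCN and COL3A1 passed the filter only through their polymer X libraries. The summed level of the list was 16.8 and 17.5 FPKM on TCP and 63.3 and 57.2 on polymer X. COL1A1, of the same list, went the other way, with 8.21 and 8.47 FPKM on TCP and 3.81 and 3.77 on polymer X (log2 fold change -0.96, and -1.03 and called lower under quantile normalization). Among 6 leukocyte markers, summed at 17.2 and 17.5 FPKM on TCP and at 43.2 and 46.0 on polymer X, CD68 made up most of the sum, CD3E had no tag, and PTPRC had at most 1 tag in a TCP library and 92 and 106 on polymer X. The endothelial list summed to less than 1 FPKM in each library, where PECAM1 had 0 tags on TCP and 102 and 83 on polymer X and KDR had 106 and 114 on TCP and 50 and 26 on polymer X. The neural progenitor list summed to 73.6 and 72.9 FPKM on TCP and to 75.2 and 77.2 on polymer X, nearly all of it TUBB3, the 1 gene tested, which was not called (log2 fold change 0.05, and 0.39 under quantile normalization). The other 5 genes of that list stayed below 0.5 FPKM. In the red cell and mast cell list, 5 of 6 markers were at 0 in all libraries. The part of these changes in the results below was not tested. In such bulk libraries, fewer cells of a kind and less RNA per cell cannot be told apart.

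Of the 10 marker genes, 7 passed the filter on low values. POU5F1 did so only through its polymer X libraries and KIT only through its TCP libraries. SOX4, NES and POU5F1 were called higher, against 10.7% of all tested genes in that direction, and none was called lower, against 9.45%. At an unadjusted p under 0.05 in the same limma fit, 4 of the 7 were higher and 3 lower, BMI1 among the latter, whose sign turned under quantile normalization. All 7 had an adjusted p under 0.05, as did 81% of all tested genes, so the fold change minimum decided the calls. The libraries of the groups did not overlap for any of the 7, which was the case for 90.4% of all tested genes. Their log2 fold changes had a median of 0.15, against -0.06 over all tested genes.

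**Figure D1:**
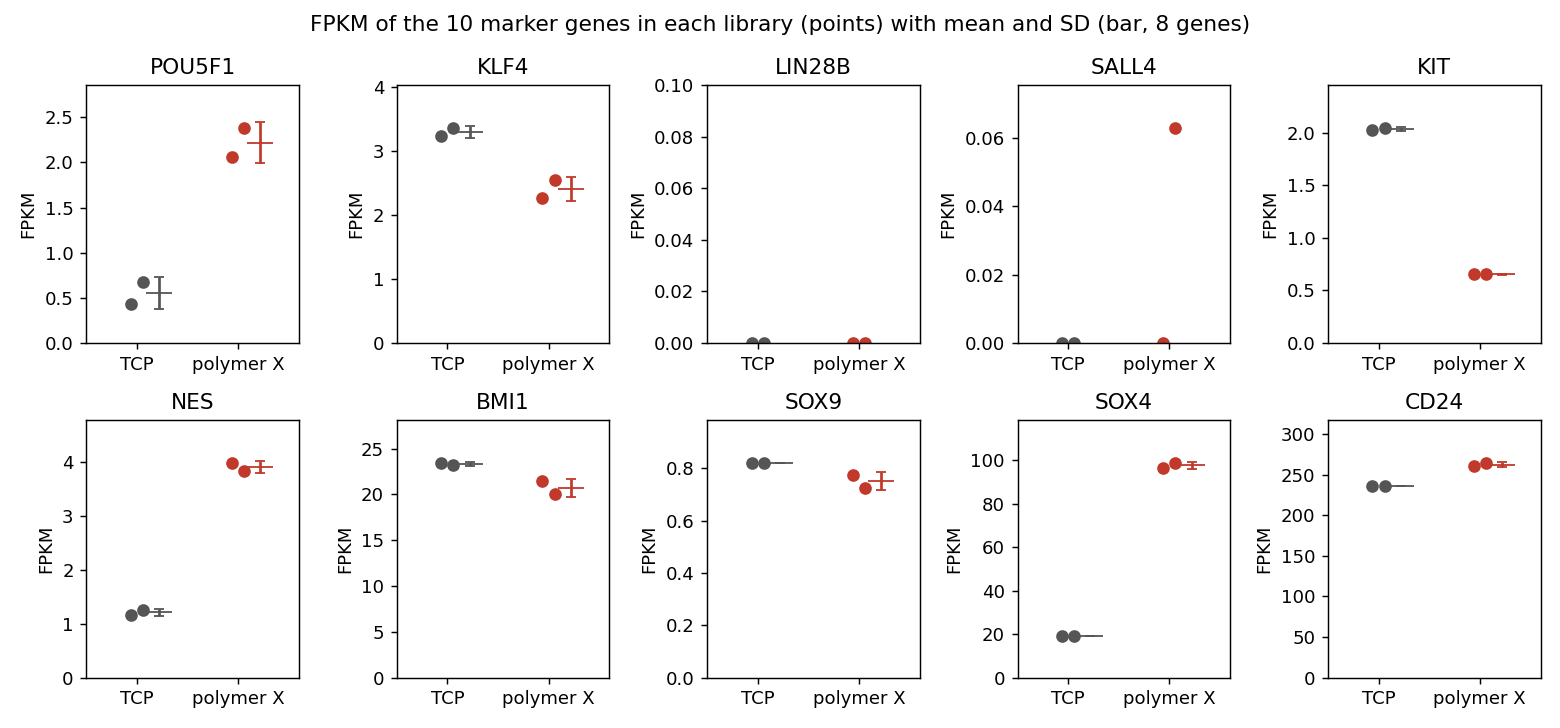
FPKM (vertical axis, linear and starting at 0, with its own scale for each gene) of the 10 marker genes in the 2 TCP and the 2 polymer X libraries. Points are libraries, and bars beside them give the mean and SD except for LIN28B and SALL4. SOX4, NES and POU5F1 lie higher on polymer X, KIT lies lower, and SALL4 is above 0 in 1 library only.

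Among the transcription factors, SOX4 had the largest change. Its single row (NM_003107, hg19 chromosome 6, 21593972 to 21598849, plus strand) was at 19.2 and 19.1 FPKM in the TCP libraries and at 96.5 and 98.9 in the polymer X libraries, or 3596, 4180, 18837 and 19609 tags. Both polymer X libraries lay far above both TCP libraries, and replicates of a group differed by at most 1.02-fold. The mean rose from 19.1 ± 0.0841 (SD, n = 2) to 97.7 ± 1.67 (SD, n = 2) FPKM. The fitted log2 fold change was 2.29 ± 0.05 (SE), with a limma adjusted p = 1.7e-09. By the size of its change, SOX4 stood at position 271 of the 11964 tested genes, and 98.4% of them had a lower log2 fold change. It passed both criteria under every alternative tried, with log2 fold changes from 2.28 to 2.55.

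POU5F1 rose from a low level. The row used (NM_203289, hg19 chromosome 6, 31132114 to 31134947, minus strand) had 0.429 and 0.680 FPKM on TCP and 2.06 and 2.38 on polymer X, from 34, 63, 170 and 200 tags. The polymer X libraries lay above the TCP libraries without overlap, but TCP replicate 2 was 1.59-fold above TCP replicate 1. The exact Poisson 95% intervals of these TCP values, 0.297 to 0.600 and 0.522 to 0.870, overlapped, and they cover counting error only. The log2 fold change was 1.05 ± 0.10 (SE) with a limma adjusted p = 9.6e-06, just over the minimum of 1. It missed the minimum when TCP replicate 1 (0.94) or polymer X replicate 2 (0.98) was left out, and under quantile normalization (0.62). With a pseudocount of 0.1 in place of 1 it was 1.85. POU5F1 passed the filter on low values only through its polymer X libraries. Without the filter its limma adjusted p was 0.013, at a log2 fold change of 1.05.

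The 5 POU5F1 rows moved alike, with ratios of the group means between 3.87 and 4.06. The row of NM_002701, which encodes the long isoform known from pluripotent cells (OCT4A) and reaches further upstream (31132114 to 31138470), had 0.405 and 0.646 FPKM on TCP and 1.80 and 2.26 on polymer X. Its 22, 41, 102 and 130 tags were 64.7%, 57.7%, 54.3% and 60.2% of those on the longest row, NM_001285986. The rows share most of their exons, so they are not independent measurements. Each POU5F1 row combines 7 placements of the gene in the table, and how their tags were joined is not given in the sources used here. Of the 169 symbols with 6 or more placements 49.7% were listed at 0 in all libraries, RING1, a Polycomb gene that most cells use, among them. Of the 18991 symbols with 1 placement 12.2% were. The FPKM of POU5F1 may therefore lie off its true level, and how far was not tested.

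**Figure D2:**
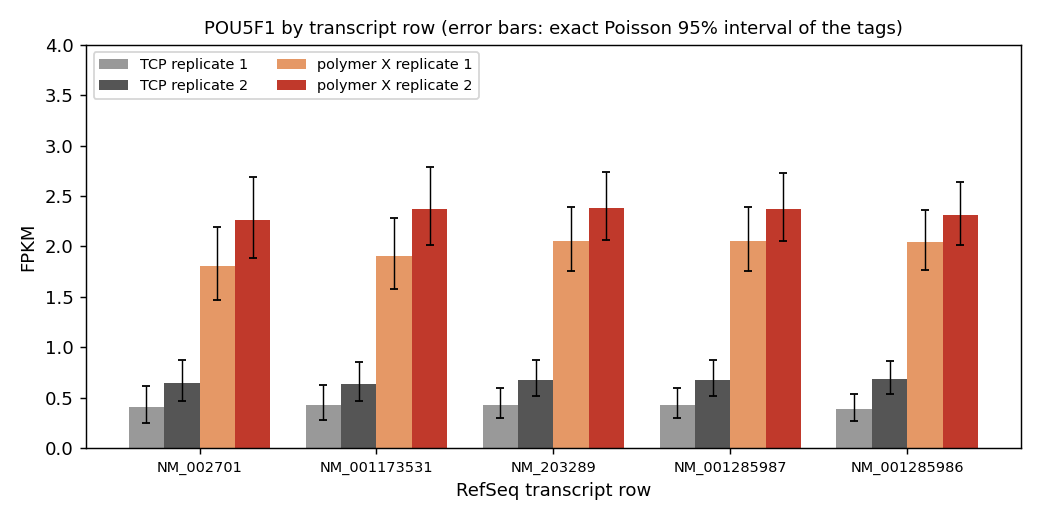
FPKM (vertical axis, from 0) of the 5 POU5F1 transcript rows, ordered by length from left to right, with a bar for each library and the exact Poisson 95% interval of its tags. In every row both polymer X libraries are above both TCP libraries, and TCP replicate 2 is above TCP replicate 1.

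Copies of POU5F1 limit this measurement. Of the 50-base stretches of the GENCODE transcript matched to NM_002701, 63.4% also occurred in transcripts of other genes, against 0% for KIT, KLF4, NES and SOX9 and 2.09% for SOX4. The gene that shared most with it was POU5F1B, with 35.5%. POU5F1B itself, named here after its values were seen, had 2 and 14 tags on TCP and 24 and 38 on polymer X. Its low counts were also higher on polymer X. How many tags of either gene came from the other was not tested.

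KLF4 was lower on polymer X by less than the minimum. The row used (NM_004235, hg19 chromosome 9, 110247133 to 110252001, minus strand) had 3.23 and 3.36 FPKM on TCP and 2.26 and 2.54 on polymer X. The groups did not overlap, and the gap between them was wider than the spread within each. The log2 fold change was -0.34 ± 0.08 (SE) with a limma adjusted p = 0.0030, and the second row, NM_001314052, had a log2 ratio of group means of -0.46, as did the first.

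SOX9 (NM_000346, hg19 chromosome 17, 70117161 to 70122560, plus strand) was at 0.822 FPKM in both TCP libraries and at 0.776 and 0.726 on polymer X. It stayed below the filter although 116 to 145 tags were counted in each library, well over the floor of 3 tags. The exact Poisson 95% intervals of the 4 libraries all overlapped, from a lowest bound of 0.600 to a highest of 0.980 FPKM. Without the filter the log2 fold change was -0.06 ± 0.02 (SE) with a limma adjusted p = 0.14. Both polymer X values lay below both TCP values, but no difference in SOX9 was detected by this fit with 2 libraries a group.

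SALL4 was near the detection limit. Its row NM_001318031 (hg19 chromosome 20, 50399256 to 50419062, minus strand) had 0 tags in both TCP libraries and in polymer X replicate 1, and 9 tags in polymer X replicate 2. The longer row NM_020436 had 0, 2, 0 and 9 tags in TCP replicates 1 and 2 and polymer X replicates 1 and 2. A single library thus held nearly all SALL4 tags, at 0.063 FPKM on the shorter row (exact Poisson 95% interval 0.0288 to 0.120). A count of 0 in the other 3 libraries has an exact Poisson 95% upper bound of 0.0234 to 0.0274 FPKM on that row. The floor of 3 tags is 0.0190 to 0.0223 FPKM there. Without the filter the log2 fold change was 0.04 (adjusted p = 0.45 from limma).

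LIN28B, the RNA-binding member, was listed at 0 in every library on its single row, which has 1 placement (NM_001004317, hg19 chromosome 6, 105404923 to 105531207, plus strand). If that 0 is a count, the upper bound of its exact Poisson interval is 0.0149 to 0.0175 FPKM for this transcript of 5499 bases. The floor of 3 tags is 0.0121 to 0.0142 FPKM there. No fold change is given, since both groups are at 0.

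BMI1, the chromatin regulator of the group, was the second most abundant of the 10 genes on TCP. It had 23.5 and 23.2 FPKM on TCP and 21.4 and 20.04 on polymer X (NM_005180, hg19 chromosome 10, 22610139 to 22620414, plus strand). The polymer X values were slightly below the TCP values, with a log2 fold change of -0.16 ± 0.06 (SE, limma adjusted p = 0.028), but under quantile normalization it was 0.060 (limma adjusted p = 0.32). Across fits that leave out 1 library the limma adjusted p ranged from 0.015 to 0.13, and only without polymer X replicate 1 was it under 0.05. In GENCODE, BMI1 shares 28.2% of its 50-base stretches with the readthrough transcript COMMD3-BMI1. The RefSeq row of this readthrough has 3372 bases and ends at the same base as the BMI1 row of 3418 bases. The COMMD3 row has only 932 bases, so the BMI1 and readthrough rows can share far more than 28.2%. Tags of both are mixed, and the rows are not separate measurements. The COMMD3-BMI1 row was at 24.9 and 24.0 FPKM on TCP and at 23.5 and 22.0 on polymer X.

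Of the surface proteins, KIT was lower on polymer X. The row used (NM_001093772, hg19 chromosome 4, 55524095 to 55606881, plus strand) had 2.02 and 2.04 FPKM on TCP and 0.651 and 0.655 on polymer X, from 399, 472, 134 and 137 tags. Replicates were nearly equal, and the groups were far apart. The mean of 2.03 ± 0.0163 (SD, n = 2) on TCP was 3.11-fold that of 0.653 ± 0.00283 (SD, n = 2) on polymer X. On the scale of log2(FPKM + 1), which understates changes at low FPKM, the log2 fold change was -0.88 ± 0.08 (SE) with a limma adjusted p = 5.7e-06 and missed the minimum. With a pseudocount of 0.1 it was -1.50 and passed it. The other row, NM_000222, which encodes an isoform longer by a few residues outside the membrane, had a ratio of 3.14 between TCP and polymer X.

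CD24 was by far the most abundant of the genes in both groups. The row used (NM_001359084) had 236 and 235 FPKM on TCP and 260 and 265 on polymer X. The polymer X libraries were 1.11-fold higher in the mean, with a log2 fold change of 0.15 ± 0.06 (SE, limma adjusted p = 0.033), and the 5 rows had ratios from 1.11 to 1.13. When single libraries were left out the log2 fold change stayed between 0.14 and 0.17, and the limma adjusted p was 0.066 to 0.11. The table places CD24 on chromosome Y of hg19, 21152526 to 21154678 for this row, while its own annotation column gives band 6q21. Of 47 other symbols with both rows and band on chromosome Y, 2 had more than 3 tags in any library, and the highest FPKM among them was 0.059. Between 6.90% and 15.5% of the 50-base stretches of the 4 CD24 transcripts matched in GENCODE also occurred in other genes, and CD24P4 shared most in each case. With this placement and these shared stretches, the FPKM of CD24 may lie off its true level, and how far was not tested.

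NES, which encodes the filament protein nestin, rose on polymer X. Its single row (NM_006617, hg19 chromosome 1, 156638556 to 156647189, minus strand) had 1.17 and 1.26 FPKM on TCP and 3.98 and 3.82 on polymer X, or 249, 313, 885 and 863 tags. The gap between the groups was far wider than the spread within either. The mean went from 1.21 ± 0.0615 (SD, n = 2) to 3.90 ± 0.115 (SD, n = 2) FPKM, and the fitted log2 fold change was 1.15 ± 0.08 (SE), with a limma adjusted p = 7.4e-07. Under quantile normalization the value was 0.89, below the minimum, while leaving out single libraries gave 1.12 to 1.18.

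**Figure D3:**
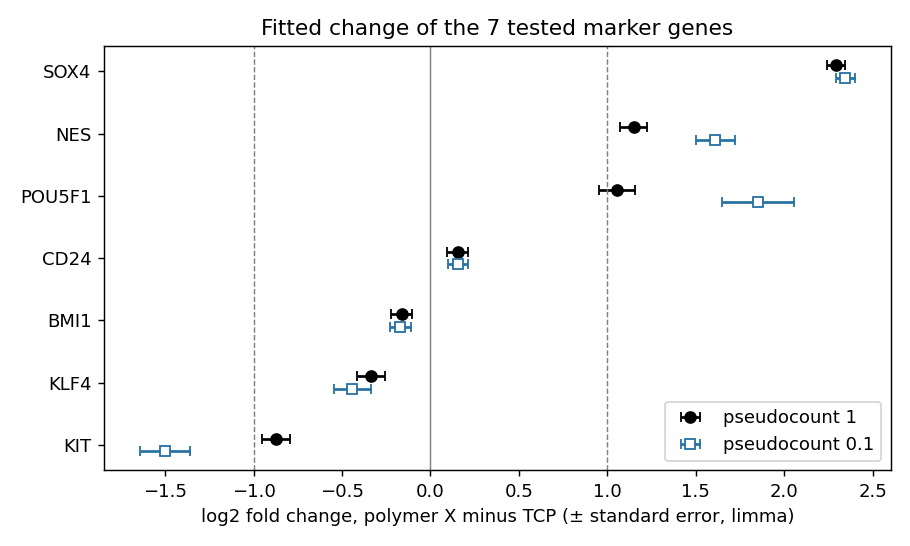
Log2 fold change of polymer X against TCP (horizontal axis, with standard error from limma) for the 7 tested genes, with a pseudocount of 1 (filled circles) and 0.1 (open squares). Dashed lines mark the minimum of 1 in each direction. KIT lies at -0.88 and -1.50, POU5F1 at 1.05 and 1.85, and SOX4 changes little between the scales.

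The order of the genes by level, which FPKM allows since it is per length, differed between the groups. On TCP it was CD24, BMI1, SOX4, KLF4, KIT, NES, SOX9 and POU5F1, followed by SALL4 and LIN28B at 0. On polymer X it was CD24, SOX4, BMI1, NES, KLF4, POU5F1, SOX9, KIT, SALL4 and LIN28B. SOX4 passed BMI1, and KIT went from place 5 to place 8. Neighbours in these orders did not overlap between their libraries, except KLF4 and POU5F1 on polymer X and the genes at or near 0. With 2 libraries in a group these orders are given as a description.

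The relatives of the marker genes were counted by family. The lists were drawn up from general knowledge of each family, with earlier results of these data known. Among all tested genes 10.7% were called higher and 9.45% lower. Of 16 other SOX genes 5 were tested and 0 were called by limma, although 3 were higher at an unadjusted p under 0.05. SOX12, of the same subgroup as SOX4, had 15.4 and 15.2 FPKM on TCP and 20.01 and 21.3 on polymer X, and SOX13 had 5.14 and 4.52 against 9.58 and 9.73 (log2 fold change 0.87). SOX17, an endoderm and vascular factor, and SOX7 had log2 fold changes of 0.17 and 0.09, the latter -0.31 under quantile normalization. None of the 5 tested relatives reached the change of SOX4. Relatives below the filter were not compared. Of these, SOX8 rose more in proportion, from 2 and 1 tags on TCP to 27 and 35 on polymer X. SOX18 had 26 and 17 tags on TCP and 33 and 26 on polymer X.

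Of 14 other KLF genes outside the pluripotency list 10 were tested, and KLF6, an early-response zinc finger factor, was called lower. It was at 117 and 120 FPKM on TCP and at 26.3 and 27.2 on polymer X (log2 fold change -2.11, adjusted p = 2.7e-09 from limma). KLF16 followed at -0.93, while KLF9, KLF10, KLF11, KLF14, KLF3 and KLF12 had positive values between 0.33 and 0.73 and KLF13 and KLF7 had 0.14 and -0.20. Under quantile normalization KLF9 (0.39), KLF14 (0.13) and KLF12 (0.094) were smaller and KLF10 (0.73) was larger. KLF2, counted with the pluripotency genes, fell from 4.29 and 4.80 FPKM to 1.32 and 1.33 (log2 fold change -1.25). KLF5 was at 0.11. In the POU family 3 of 15 relatives were tested and 0 were called, with 2 higher at an unadjusted p under 0.05 in limma. POU2F1 had a log2 fold change of -0.06, POU3F2, which passed the filter only through its polymer X libraries, of 0.64 and POU6F1 of 0.67. Under quantile normalization the median of these 3 POU genes went from 0.64 to -0.005.

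Unlike SALL4, its relative SALL1 was well detected. SALL2 and SALL3 lay below the filter and were not tested. SALL2 had 0.048 and 0.054 FPKM on TCP (9 and 12 tags) and 0.634 and 0.734 on polymer X (125 and 147 tags). SALL3 had 2 and 0 tags on TCP and 0 and 0 on polymer X. SALL1 rose from 3.99 and 3.97 FPKM on TCP to 13.2 and 13.9 on polymer X, with a fitted log2 fold change of 1.55 ± 0.07 (SE, limma adjusted p = 3.9e-08). It was the 1 gene called among 14 tested genes of the SALL family and of the NuRD complex, a histone deacetylase complex that SALL proteins recruit. Their median log2 fold change was -0.26, and 0.016 under quantile normalization, where SALL1 was again the 1 gene called.

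**Figure D4:**
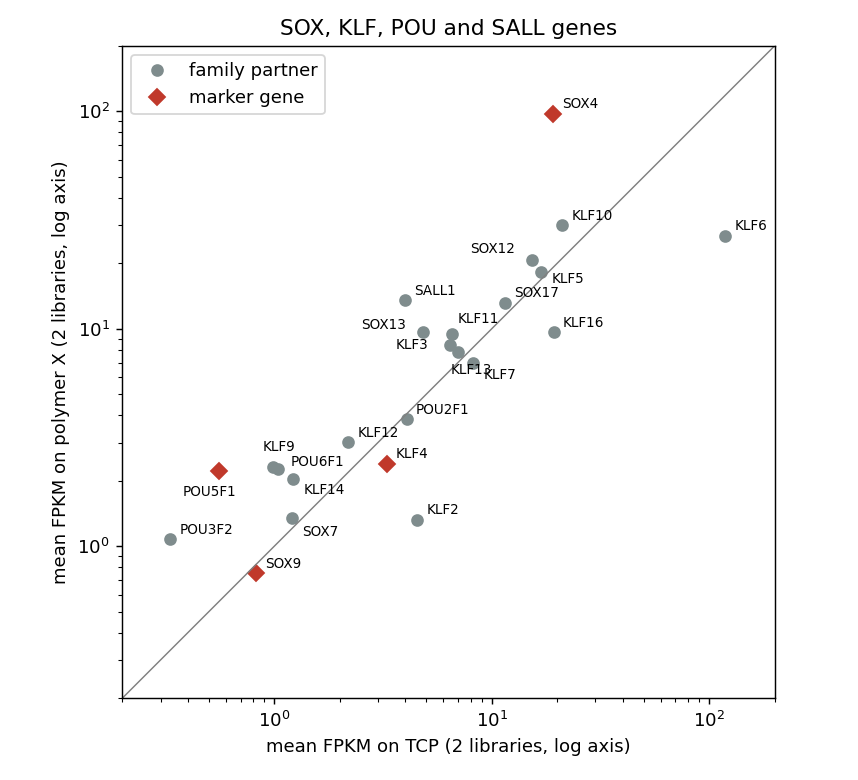
Mean FPKM on polymer X against mean FPKM on TCP (both axes logarithmic, 2 libraries a group) for POU5F1, KLF4, SOX9 and SOX4 (red diamonds) and for relatives with at least 1 FPKM in both libraries of a group (grey circles). The line marks equal levels. SOX4, SALL1 and POU5F1 lie furthest above it and KLF6 and KLF2 furthest below.

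Most of the other pluripotency network genes were listed at low values or at 0. Of 25 further network genes 7 were tested, 8, each with 1 placement, were listed at 0 in all libraries, and 14, these 8 included, stayed below 0.1 FPKM. NANOG had 0 tags in each library on both of its rows, and SOX2 had 0 tags in both TCP libraries and 2 in each polymer X library, at or under the floor of 3. No network gene was called higher, as 10.7% of all tested genes were, against 1 higher at an unadjusted p under 0.05 in limma. Against 9.45% of all tested genes, 3 of the 7 were called lower, or 42.9%. These were MYC, the growth regulator used in reprogramming (19.7 and 20.4 FPKM on TCP, 1.99 and 2.16 on polymer X, log2 fold change -2.78), PODXL, a sialomucin that carries stem cell surface epitopes (-1.72), and KLF2. The median log2 fold change of the 7 was -0.59, and -0.29 under quantile normalization, where 3 genes were again lower.

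Of 20 surface and enzyme markers of CSCs, 14 were tested, and of these 4 were called higher and 1 lower. That is 28.6% and 7.14%, against 10.7% and 9.45% of all tested genes. CXCR4, a chemokine receptor, went from 0.218 and 0.240 FPKM to 60.8 and 65.5 (log2 fold change 5.71). MUC1, NT5E and EPCAM, a mucin, an ectonucleotidase and an adhesion molecule, had log2 fold changes of 2.63, 1.13 and 1.05. CXCR4 and EPCAM passed the filter only through their polymer X libraries. ITGB1, which encodes integrin β1, fell by 1.33 on the log2 scale. Under quantile normalization 5 were higher and 0 lower: EPCAM (0.46) and ITGB1 (-0.97) no longer reached the minimum, and CD44 (1.13) and CD9 (1.07) did. Some genes of this list are among those the study itself followed. The median of the 14 was 0.65, and 0.34 under quantile normalization.

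The partners of LIN28B, KIT, BMI1 and NES were counted in the same way, beside 10.7% called higher and 9.45% lower among all tested genes. Of 12 tested genes of the LIN28 and let-7 axis, 0 were called by limma in either direction, while 4 were higher and 7 lower at an unadjusted p under 0.05. In KIT signalling, 1 of 13 tested genes was called in each direction, or 7.69%. These were ETV1 (log2 fold change 1.24, from 0.029 and 0.004 FPKM to 1.51 and 1.29) and the phosphatase gene PTPN11 (-1.24). Neither reached the minimum under quantile normalization (0.85 and -0.96). ETV1 passed the filter only through its polymer X libraries. KITLG, which encodes the KIT ligand, was at 9.85 and 9.99 FPKM on TCP and at 7.71 and 7.11 on polymer X. Of 23 tested Polycomb genes, CBX7 was called higher (1.31), or 4.35%. PHF19 (-1.91), the methyltransferase gene EZH2 (-1.31) and PCGF6 (-1.04) were called lower, or 13%. Under quantile normalization PHC2 (1.09) was higher too. Of 6 tested intermediate filament genes, the peripherin gene PRPH was called higher (1.13), or 16.7%. The nuclear lamin genes LMNB2 and LMNB1 were called lower (-2.09 and -1.97), or 33.3%. PRPH passed the filter only through its polymer X libraries and missed the minimum under quantile normalization (0.75). VIM, which encodes vimentin, a partner of nestin in filaments, had a log2 fold change of -0.03 (limma adjusted p = 0.77), which turned to 0.02 under quantile normalization.

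Promoter sequences of 7 of the 10 genes, with 11 start sites, were found in the RefSeq table (GRCh38.p14); POU5F1, SALL4 and SOX9 were not matched. Those of SOX4 and NES, which rose, and of KIT, the most reduced, are shown from 250 bases before the start site to the base before it. Capitals mark every match to a searched motif on either strand. The motifs were the STAT motifs TTCCNGGAA and TTCNNNGAA (the second contains the first), the hypoxia elements ACGTG and GCGTG, the GC box GGGCGG, the octamer ATGCAAAT and the SOX motif ACAAAG.
SOX4, chr6:21593501-21593750, plus strand: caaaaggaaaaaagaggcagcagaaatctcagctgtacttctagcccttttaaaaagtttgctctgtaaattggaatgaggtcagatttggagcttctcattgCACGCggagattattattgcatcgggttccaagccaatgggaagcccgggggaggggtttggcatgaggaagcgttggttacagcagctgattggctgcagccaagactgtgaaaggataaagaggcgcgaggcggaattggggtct
NES, chr1:156677408-156677657, minus strand: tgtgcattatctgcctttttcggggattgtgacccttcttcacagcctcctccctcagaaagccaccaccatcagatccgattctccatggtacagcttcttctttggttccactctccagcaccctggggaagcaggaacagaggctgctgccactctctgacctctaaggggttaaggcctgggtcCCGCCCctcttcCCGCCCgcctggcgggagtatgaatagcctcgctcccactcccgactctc
KIT, chr4:54657707-54657956, plus strand: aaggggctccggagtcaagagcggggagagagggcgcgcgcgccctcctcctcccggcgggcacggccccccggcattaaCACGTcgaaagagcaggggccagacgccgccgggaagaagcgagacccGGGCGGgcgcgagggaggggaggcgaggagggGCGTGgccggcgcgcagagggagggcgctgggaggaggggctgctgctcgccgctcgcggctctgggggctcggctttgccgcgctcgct
The SOX4 stretch held 1 match to GCGTG and no GC box, and that of NES held 2 GC boxes. That of KIT held 1 GC box and 1 match to each hypoxia element. Their GC contents were 48.8%, 58.0% and 76.4%. Over windows of 300 bases (50 of them after the start site), neither STAT motif occurred in the 11 promoters, against 1.15% and 7.66% of all 35116 promoters of that length. ACGTG occurred in 5 of 11, against 21.4% of all, GCGTG in 5, against 36.5%, the GC box in 8, against 45.0%, and ACAAAG in 3, against 16.1%. CD24, LIN28B and BMI1 each have several of the 11 start sites, so these are not independent. By gene, ACGTG was in BMI1, KIT, KLF4 and LIN28B, and GCGTG in BMI1, CD24, KIT and SOX4. The GC box was in every matched gene but SOX4, and ACAAAG in CD24 and LIN28B only. The octamer was in none of the 11 and in 1.77% of all. A match says only that these letters are present in the window.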

How the data were processed

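RNA-seq of 4 SKOV3 libraries was analysed. The deposited values are FPKM per RefSeq transcript, which the authors obtained with HOMER (hg19, exons, both strands) and rounded to 3 decimals. The labels also name STAR 2.4.0 and DESeq without a role. The HOMER version and trimming are not given in the sources used here. Counting without strand mixes a gene with any antisense partner.

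Multiplied by length, the values fell on whole multiples of 1 step, which gave the tags per library. Of low values (at most 20 tags, transcripts up to 2000 bases), 100% lay within 0.1 of a whole tag. Groups at or under 3 tags were treated as at the floor. A symbol was represented by its transcript of highest mean FPKM. Genes reaching an FPKM of 1 in 2 or more libraries entered limma 3.58.1 as log2(FPKM + 1) values (R 4.3.3, mean-variance trend, no replicate block, Benjamini-Hochberg adjustment over 11964 genes). The procedure was tested on simulated data. Exact Poisson intervals (95%) were computed with scipy 1.17.1 and plots were drawn with matplotlib 3.10.9.

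The 10 genes and all lists were chosen with earlier results of these data known. All 10 genes are described in full. From each list the text names the 2 called genes that moved most each way, relatives of SOX, KLF, POU and SALL genes that reach an FPKM of 1 in both libraries of a group, and SOX2 and NANOG. Other genes named were chosen after their values were seen, as were the stretches of 50 bases compared between transcripts. Alternatives were a pseudocount of 0.1, no filter, a minimum of 5 for mean FPKM, quantile normalization, a common median, the replicate block, the sum or the longest of the transcripts, no variance trend, other fold change minimums, and each library left out.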

Additional observations from a re-analysis of the deposited data

How the results depend on the processing

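SOX4 kept its direction and was called under all alternatives. KLF4 and CD24 kept their direction wherever tested (KLF4 was not tested at a mean FPKM of 5 or more) and were called only without a fold change minimum. Under quantile normalization POU5F1 (0.62) and NES (0.89) no longer reached the minimum, KIT passed it (-1.27), and BMI1 changed sign (0.060). In that fit 1 marker gene was called higher and 1 lower in place of 3 and 0, and 1168 and 1015 of all 11964 tested genes were. KIT also passed the minimum when the pseudocount was 0.1 (-1.50) and when transcripts were summed (-1.14), which made 1 marker gene lower in each case. Of all tested genes, 1413 of 11964 and 1259 of 12490 were lower in these 2 fits. At a mean FPKM of at least 5, only CD24, BMI1 and SOX4 of the marker genes were tested, and 1 was higher. Of all 8166 genes tested there, 702 were higher and 960 lower. Without a fold change minimum, 3 marker genes were lower and 4 higher, and 4477 of all genes were higher and 5212 lower. With the minimum raised to 2, 1 marker gene was higher, and 281 of all genes were higher and 150 lower. These changes with the filter and the minimum follow from how they were built, and the cause of the others was not tested. Quantile normalization and the common median left the median log2 fold change of all tested genes at -0.05 and -0.02.

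With each library left out, which leaves a lone library assumed to vary like the others, POU5F1 ranged from 0.94 to 1.17 and was not called without TCP replicate 1 or polymer X replicate 2. With the replicate block 3 marker genes were higher and 0 lower, as without it, and the block changed no other call among the 7 genes. Libraries with the same number had deviations that correlated at 0.093, so no pairing was assumed. Depth limits SALL4 and LIN28B, and POU5F1 on TCP rests on 34 and 63 tags.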
